A study of Homo sapiens with 12 samples.

Results

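Glycogen is the branched glucose polymer that liver cells store and break down. To build it, phosphoglucomutases, chiefly PGM1 and less so PGM2, interconvert glucose 6-phosphate and glucose 1-phosphate. UGP2 makes UDP-glucose, the glycogen synthases GYS1 (the widely expressed form) and GYS2 (the liver form) extend the chains and GBE1 adds the branches. The phosphorylases PYGL (liver form) and PYGB (brain form) release glucose 1-phosphate from the chains, and PPP1R3B and PPP1R3C are targeting subunits that bring protein phosphatase 1 to glycogen, where it activates the synthase and inactivates the phosphorylase. Hypoxia-inducible factors (HIFs) are known to raise several genes of this pathway in other cell systems.

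These 10 genes were chosen by name, with earlier results of these data known, from the 60666 genes listed for each library. All 10 were found by their Ensembl identifiers. The transcripts were measured in Huh7, an established human hepatocellular carcinoma line, cultured in 25 mM glucose with 10% foetal calf serum. Cells received DMSO alone or 25 µM Molidustat, an inhibitor of the prolyl hydroxylases that mark HIFs for degradation, for 24 h or 48 h, with 3 libraries in each of the 4 groups. The question addressed here is which transcripts of glycogen synthesis and breakdown differed between Molidustat and DMSO at each time point. One cell line at one dose limits what the groups can stand for. The methods describe the 3 libraries of a condition as biological replicates and the series' design text describes them as RNA extractions. The p-values therefore set each group difference against the spread between these libraries, which may not cover the spread between cultures.

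Counts on genes ranged from 2462623 to 4744982 per library for DMSO at 24 h, from 2703897 to 8202125 for Molidustat at 24 h, from 1499273 to 9179389 for DMSO at 48 h and from 2312396 to 5122636 for Molidustat at 48 h. Replicate 2 of DMSO at 48 h stood apart. It had the fewest counts, 50.4% of its reads fell outside annotated genes against 17.1% to 25.6% in the other 11 libraries, and its scaling factor was 0.629. Most results that rest on it are given with and without it, and levels are given for the calls of PPP1CB and UGDH. Levels below are CPM, counts per 1000000 of the library size after TMM scaling. Because reads came from the 3′ ends of transcripts, levels are compared between samples for 1 gene and not between genes.

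The RNA held markers of the liver lineage of the labelled line, and no other liver line was compared. All 10 hepatocyte or hepatoma markers examined (ALB, AFP, APOA1, APOA2, APOB, TTR, FGB, TF, SERPINA1 and HNF4A) had counts in every library, with a summed level of 9404 CPM in replicate 2 of DMSO at 48 h and of 14458 to 31300 CPM in the others. The 8 markers of other cell types summed to at most 7.70 CPM, PECAM1 and PDGFRB held most of these counts, and KRT5 and MYH2 were at 0 in all 12 libraries. Genes of the HIF response served as a reference. In a list of 12 HIF targets, all 11 that were tested had a log2 fold change above 0 at either time. The same held for 51.5% of all genes tested at 24 h and for 50.4% at 48 h. The median change over the list on the log2 scale was 2.13 (24 h) and 1.65 (48 h). A call required both an adjusted p below 0.05 and a change of more than 1 on the log2 scale. It was reached by 6 of the 11 at 24 h and by 2 at 48 h, where 0.231% and 0.210% of all genes tested were called higher. Unless another setting is named, a call is that of edgeR with all 12 libraries and genes of low counts filtered out. At 24 h the largest log2 fold changes in this list were those of PDK1 (3.604 ± 0.68, SE), BNIP3 (2.81 ± 0.34) and PGK1 (2.80 ± 0.36), with edgeR adjusted p = 0.0339, 0.000977 and 0.00112.

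Among the 10 glycogen genes, PGM1 alone was called at single time points. It rose 5.29-fold at 24 h and 3.57-fold at 48 h. GYS1 was also higher in every Molidustat library than in any DMSO library. Its changes were smaller than those of PGM1 at both time points, and it was called only when both were averaged. The transcripts of UGP2, GBE1, PGM2, PYGL, PYGB, PPP1R3B and PPP1R3C passed at neither time point, and GYS2 was listed at 0 throughout. Of the 9 members tested, 1 was called higher and 0 lower at 24 h, where 0.231% of the 14274 genes tested were called higher and 0.00% lower. At 48 h, 1 was called higher and 0 lower, where 0.210% of all genes were called higher and 0.0210% lower. For the mean of both time points 2 were called higher and 0 lower, against 0.960% and 0.0701% of all genes tested. The balance of directions over all genes at 48 h depended on the setting. DESeq2 called 1.20% higher and 1.24% lower, limma-voom 1.71% and 0.238%, and edgeR without a filter on low counts 0.542% and 2.15%. Without replicate 1, 2 or 3 of DMSO at 48 h, edgeR called 0.368%, 0.315% and 0.308% higher and 1.82%, 0.0328% and 1.02% lower. The levels compared at the 2 time points come from different libraries, but both tests use a common estimate of the spread from all 12 libraries. The calls at 24 h and 48 h are therefore not independent. The mean uses the levels of all 12 libraries. Molidustat and DMSO libraries did not overlap, with Molidustat higher, for 3 of 9 members at 24 h (7.26% of all genes tested) and for 5 of 9 at 48 h (9.96%). PGM1 and GYS1 were separated in this way at both time points, as were 2.20% of all genes tested. The log2 fold change was above 0 for 7 of 9 members at 24 h (51.5% of all genes tested) and for 6 of 9 at 48 h (50.4%). The median over the 9 members was 0.52 at 24 h and 0.58 at 48 h, beside 0.02 and 0.01 for all genes tested. These counts and medians include PPP1R3C, separated at 48 h, which passed the filter on low counts only with its Molidustat libraries. Its part in them is therefore given as a description. These are bulk libraries, so more cells holding a transcript and more of the transcript per cell cannot be told apart.

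**Figure D1:**
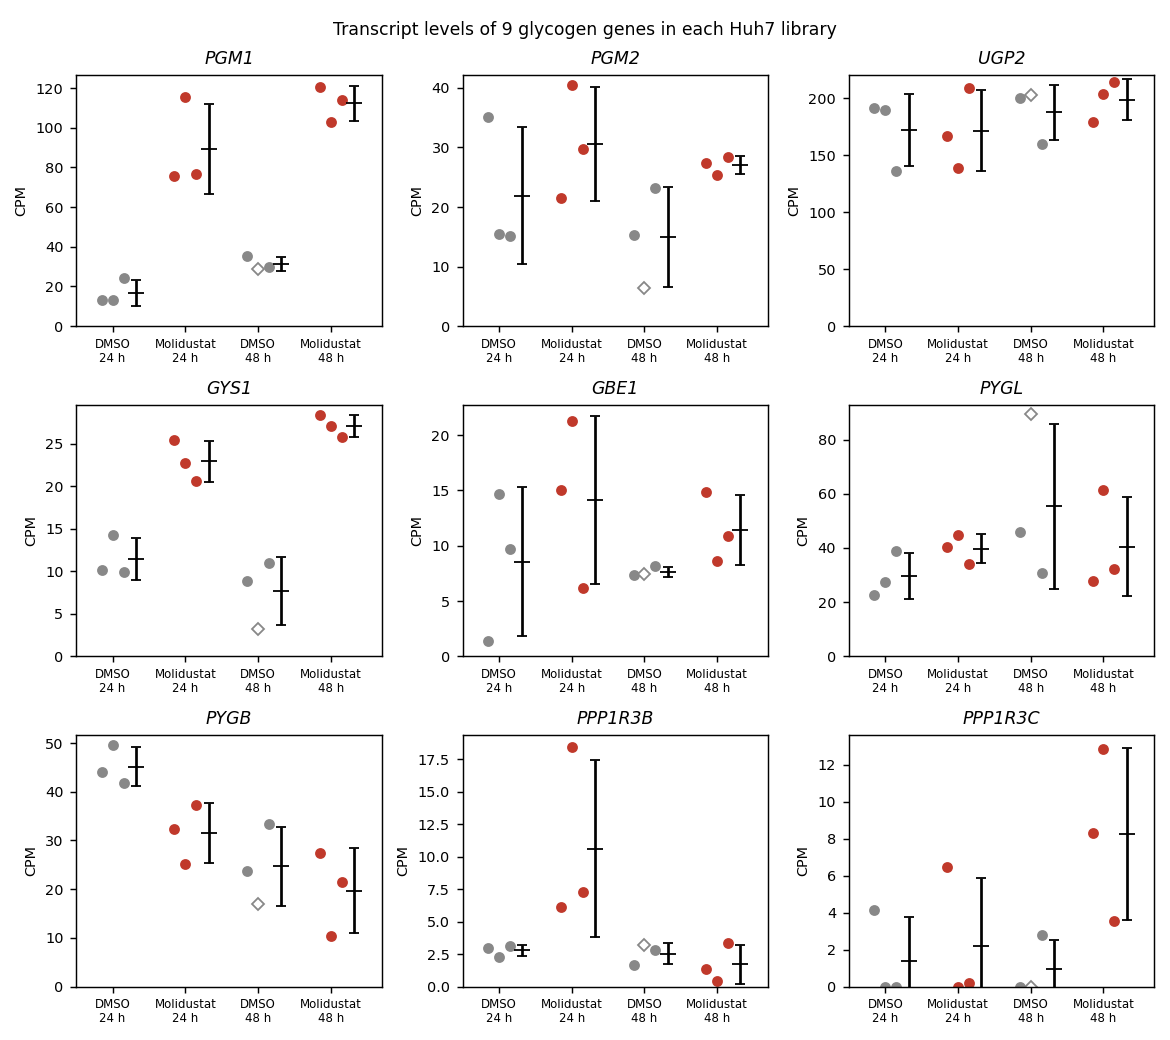
Level in CPM (vertical axes, starting at 0) of the 9 detected members in each of the 12 libraries, by treatment and time (horizontal axes). Points are libraries, grey for DMSO and red for Molidustat, the open diamond is replicate 2 of DMSO at 48 h, and the black bar beside each group is the mean ± SD of 3 libraries. PGM1 and GYS1 have all Molidustat points above all DMSO points at the same time, while UGP2 groups overlap.

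PGM1 (ENSG00000079739, chr1:63593411-63660245, plus strand, GRCh38) encodes the main phosphoglucomutase. Its level in the DMSO libraries at 24 h was 13.1, 13.1 and 24.2 CPM, and in the Molidustat libraries 75.6, 116 and 76.7 CPM. At 48 h the DMSO libraries had 35.5, 28.7 and 29.7 CPM and the Molidustat libraries 120, 103 and 114 CPM. Every Molidustat library was thus at least as high as 75.6 CPM and every DMSO library at most 35.5 CPM, at either time. The group means were 16.8 ± 6.39 CPM (SD, n = 3) and 89.3 ± 22.8 CPM at 24 h, and 31.3 ± 3.67 CPM and 112 ± 8.83 CPM at 48 h. The log2 fold change was 2.40 ± 0.34 (SE; edgeR adjusted p = 0.00298) at 24 h and 1.84 ± 0.33 (edgeR adjusted p = 0.0275) at 48 h. The difference between these 2 changes was -0.57, with a 95% interval from -1.54 to 0.40 (edgeR adjusted p = 0.861), so the sizes at 24 h and 48 h could not be told apart at this depth. With single libraries left out, this difference ran from -0.94 to -0.36. Without replicate 2 of DMSO at 48 h the 48 h change was 1.77 (adjusted p = 0.0225). The 24 h call held in each of the 12 fits that left out 1 library. At 48 h it held in 7 and was lost without replicate 1 or 3 of Molidustat at 24 h and without any 1 of the Molidustat libraries at 48 h, with changes between 1.78 and 1.88 and adjusted p between 0.0501 and 0.163 in those fits. Among 9 other settings the 48 h call held in 7 and was lost with the replicate block and with only the 2 groups compared. ITGB3BP, on the opposite strand, shares 4.83% of the exonic bases of PGM1 and changed by -0.04 and -0.28 on the log2 scale at 24 h and 48 h, respectively.

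The second phosphoglucomutase gene, PGM2 (ENSG00000169299, chr4:37826660-37862937), had 35.1, 15.4 and 15.1 CPM with DMSO and 21.5, 40.5 and 29.8 CPM with Molidustat at 24 h, and the groups overlapped. The 48 h levels were 15.3, 6.39 and 23.1 CPM with DMSO and 27.4, 25.3 and 28.4 CPM with Molidustat, a separation without a call (log2 fold change 0.78 ± 0.46, SE; edgeR adjusted p = 0.511). The lowest of these values, 6.39 CPM, rested on 6 counts in replicate 2 of DMSO, and without that library the change was 0.48, against 1.21 without replicate 3 of DMSO at 48 h. UGP2 (ENSG00000169764, chr2:63840952-63891562), which supplies UDP-glucose, was the steadiest member. Its group means were 172 ± 31.5, 172 ± 35.3, 188 ± 24.1 and 199 ± 18.0 CPM (SD, n = 3) for DMSO and Molidustat at 24 h and for DMSO and Molidustat at 48 h. The 95% interval of its log2 fold change ran from -0.62 to 0.61 at 24 h and from -0.53 to 0.70 at 48 h, so a change beyond 2-fold in either direction lay outside both.

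GYS1 (ENSG00000104812, chr19:48968130-48993310, minus strand) encodes the glycogen synthase found in most tissues. Its libraries had 10.1, 14.3 and 9.92 CPM with DMSO and 25.5, 22.7 and 20.6 CPM with Molidustat at 24 h. After 48 h the DMSO libraries had 8.81, 3.19 and 10.95 CPM and the Molidustat libraries 28.3, 27.0 and 25.7 CPM. The lowest Molidustat library, at 20.6 CPM, was above the highest DMSO library, at 14.3 CPM. The log2 fold change was 1.01 ± 0.42 (SE; edgeR adjusted p = 0.872) at 24 h and 1.71 ± 0.43 (edgeR adjusted p = 0.150) at 48 h, which passed the test at neither time. The mean of both time points was 1.36 ± 0.30 (edgeR adjusted p = 0.0372), a 2.56-fold rise. This call was held in 2 of the 12 fits that left out 1 library, those without replicate 2 (1.23, adjusted p = 0.0182) and without replicate 3 of DMSO at 48 h, and in the other 10 the change lay between 1.29 and 1.44 with adjusted p up to 0.140. Among 7 other settings the mean call held in 5 and was lost with total counts and with the replicate block. At 48 h GYS1 was called by DESeq2 (adjusted p = 0.00515) and by limma-voom with sample weights (adjusted p = 0.0110). Its 3.19 CPM in replicate 2 of DMSO at 48 h came from 3 counts, and without that library the 48 h change was 1.43.

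GYS2 (ENSG00000111713, chr12:21536107-21604847), the synthase of liver, had 0 counts in all 12 libraries. This does not show that the transcript was absent. In GENCODE 44, 85.3% of its exonic bases are shared with another gene on the same strand, ENSG00000285854, which had 0 to 7 counts per library, and a read that fits 2 genes is usually left unassigned by gene counting. Reads left as ambiguous made up 1.20% to 2.60% of each library. A count of 0 allows up to 3 counts, from 0.310 CPM in the deepest to 3.19 CPM in the shallowest library, for counting error only.

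GBE1 (ENSG00000114480, chr3:81489703-81761645), the branching enzyme, varied between libraries of the same group. At 24 h it had 1.38, 14.6 and 9.71 CPM with DMSO and 15.1, 21.2 and 6.15 CPM with Molidustat. The 48 h libraries were more alike, with 7.32, 7.45 and 8.16 CPM for DMSO and 14.8, 8.58 and 10.9 CPM for Molidustat. The groups overlapped at 24 h and were just separated at 48 h. The log2 fold change was 0.74 ± 0.67 (SE) at 24 h and 0.58 ± 0.68 at 48 h, and the 95% interval at 48 h reached from -0.87 to 2.03. The 24 h change was 0.22 without replicate 1 of DMSO, 1.34 without replicate 2 of DMSO and 0.31 without replicate 2 of Molidustat at 24 h. At 48 h the change ran from 0.35 to 0.73 with single libraries left out.

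Neither phosphorylase was called by edgeR. PYGL (ENSG00000100504, chr14:50857891-50944483), which releases glucose from liver glycogen, had 22.7, 27.3 and 39.0 CPM with DMSO and 40.5, 44.8 and 34.0 CPM with Molidustat at 24 h. At 48 h DMSO gave 45.8, 89.4 and 30.7 CPM and Molidustat 27.6, 61.3 and 32.3 CPM. The groups overlapped at both times. The log2 fold change of PYGL was 0.42 ± 0.42 (SE) at 24 h and -0.43 ± 0.42 at 48 h, and its direction at 48 h rested on replicate 2 of DMSO, the library at 89.4 CPM, since the change was 0.06 without it. Its 24 h change ran from 0.26 to 0.65 with single libraries left out. PYGB (ENSG00000100994, chr20:25248085-25298012) had 44.1, 49.7 and 41.7 CPM with DMSO and 32.3, 25.1 and 37.3 CPM with Molidustat at 24 h, where every Molidustat library was below every DMSO library, as for 5.02% of all genes tested. By 48 h it had 23.7, 17.0 and 33.3 CPM with DMSO and 27.4, 10.3 and 21.4 CPM with Molidustat. Its log2 fold change was -0.52 ± 0.38 at 24 h and -0.34 ± 0.39 at 48 h, and neither passed the test (edgeR adjusted p = 0.999 and 0.778). The 48 h change of PYGB ran from -0.66 to -0.06 with single libraries left out, the latter without replicate 3 of DMSO at 48 h.

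The ratio of 2 transcripts within a library does not depend on library scaling. The log2 ratio of GYS1 to PYGL counts, with 0.5 added to each, was -1.16, -0.93 and -1.97 with DMSO and -0.67, -0.98 and -0.72 with Molidustat at 24 h, and the groups overlapped. At 48 h it was -2.37, -4.59 and -1.48 with DMSO and 0.03, -1.18 and -0.33 with Molidustat, so the synthase was higher relative to the phosphorylase in every Molidustat library. The lowest of these, -4.59, was replicate 2 of DMSO. The log2 ratio of PYGL to PYGB averaged -0.63 ± 0.47 and 0.34 ± 0.48 (SD, n = 3) for DMSO and Molidustat at 24 h, and 1.06 ± 1.24 and 1.05 ± 1.33 at 48 h. Without replicate 2 of DMSO at 48 h that DMSO mean was 0.42 and the mean of GYS1 to PYGL was -1.93, over 2 libraries each. The ratio of PYGL to PYGB overlapped between treatments at both times. These ratios are given without a test.

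Counts of the targeting subunits were low in many libraries. PPP1R3B (ENSG00000173281), the main glycogen-targeting subunit of liver, had 2.99, 2.31 and 3.10 CPM with DMSO and 6.09, 18.5 and 7.31 CPM with Molidustat at 24 h. Its levels at 48 h were 1.63, 3.19 and 2.79 CPM with DMSO and 1.35, 0.429 and 3.38 CPM with Molidustat. The 3 Molidustat libraries at 24 h were thus the highest of all 12, and at 48 h the treatments overlapped. The log2 fold change was 1.92 ± 0.80 (SE; edgeR adjusted p = 0.872) at 24 h and -0.43 ± 0.83 at 48 h, and the 24 h change was 1.25 without replicate 2 of Molidustat, the library at 18.5 CPM. At 48 h it ran from -1.36 without replicate 3 to -0.05 without replicate 2 of Molidustat at 48 h. The difference between the 2 time points was -2.35, with a 95% interval from -4.79 to 0.10 (edgeR adjusted p = 0.766). Counts behind these values ran from 1 to 152 per library. PPP1R3C (ENSG00000119938, chr10:91628442-91633071), another targeting subunit, had counts in 7 of 12 libraries and passed the filter on low counts only with its Molidustat libraries. It had 4.13, 0 and 0 CPM with DMSO and 6.45, 0 and 0.192 CPM with Molidustat at 24 h, and 0, 0 and 2.79 CPM against 8.31, 12.9 and 3.57 CPM at 48 h. The Molidustat libraries at 48 h were all above the DMSO libraries, but the log2 fold change of 2.82 had a 95% interval from -1.02 to 6.66 (edgeR adjusted p = 0.551). With single libraries left out it ran from 2.18 to 8.16, the highest without replicate 3 of DMSO at 48 h, a fitted value against a group then at 0.

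**Figure D2:**
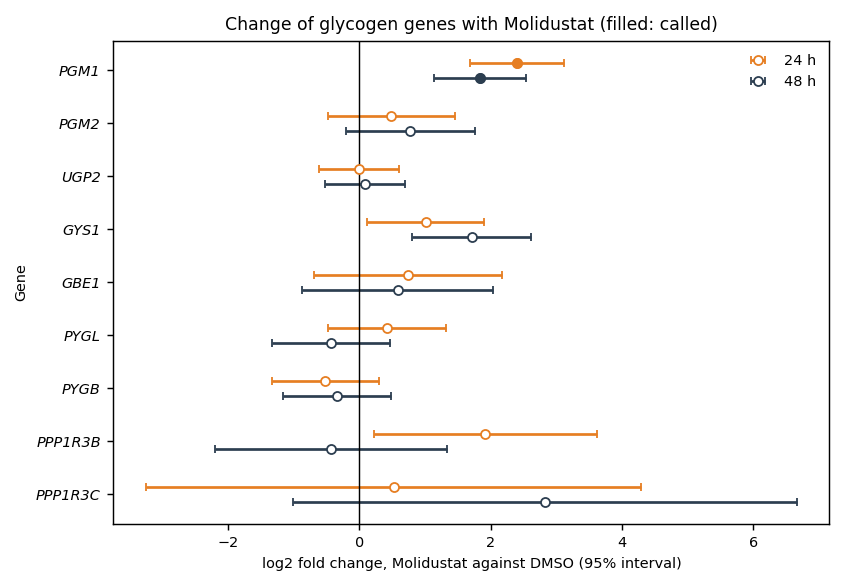
Log2 fold change of Molidustat against DMSO (horizontal axis) for 9 members (vertical axis), orange at 24 h and dark blue at 48 h. Bars are 95% intervals from the edgeR fit and filled points were called, which holds for PGM1 at both times and for no other member, while the interval of GYS1 lies above 0 at both.

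The members were also compared between the time points within each treatment. By edgeR, 0 of the 9 were called between 48 h and 24 h with DMSO (0.00701% of all genes tested were called), 0 with Molidustat (0.00%) and 0 for the difference between the treatment effects at the 2 times (0.00%). DESeq2 and limma-voom called 0 of the 9 in these comparisons too. At an unadjusted p under 0.05 there were 2 members with DMSO (8.14% of all genes tested), 1 with Molidustat (4.58%) and 0 for the difference (6.78%). With DMSO, the PGM1 libraries at 48 h were all above those at 24 h (log2 fold change 0.90 ± 0.33, SE; edgeR adjusted p = 0.541), as for 5.75% of all genes tested, and the PYGB libraries were all below (-0.84 ± 0.39; edgeR adjusted p = 0.603), as for 6.19%. With Molidustat, the GYS1 libraries at 48 h were all just above those at 24 h (0.24 ± 0.41, SE; edgeR adjusted p = 0.9998), as for 7.15% of all genes tested. PPP1R3B was below its 24 h level in all 3 libraries at 48 h with Molidustat (-2.55 ± 0.82, SE; edgeR adjusted p = 0.9998), as were 6.79% of all genes tested, and this change ran from -3.49 to -1.91 with single libraries left out.

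The short motifs ACGTG and GCGTG, the core of the element that HIFs bind, were looked for on both strands of the promoter windows in RefSeq (GRCh38.p14), from 250 bases before to 50 bases after each start. Such windows were given for 8 of the 10 members and numbered 11, because PGM1 has 3 starts and UGP2 has 2. One or both motifs stood in 8 of these 11 windows, and in 48.4% of all 35116 windows (ACGTG in 21.4%, GCGTG in 36.5%). The 29-base stretches below are shown for the 2 members that were called, and for GBE1 and PPP1R3C as examples of members that were not called but whose windows hold ACGTG, as do those of PGM2 and UGP2. Capitals mark 1 motif in each stretch in the direction of the gene, and CACGC is GCGTG on the opposite strand.
PGM1, 26 bases before its second start (chr1:63593771-63593799, plus strand): ggcgcgtgtgcgACGTGcggcccgcggcg
GYS1, 108 bases before the start (chr19:48993401-48993429, minus strand): caccaatgaggaCACGCggaaatccccgc
GYS1, 85 bases before the start (chr19:48993378-48993406, minus strand): ccccgcccccggGCGTGggccaatggcgc
GBE1, 112 bases before the start (chr3:81761741-81761769, minus strand): tacccgctccggACGTGcgtcccggcatc
PPP1R3C, 44 bases before the start (chr10:91633099-91633127, minus strand): agggatcgggtcACGTGcttgggagcaga
The stretch of PPP1R3C holds the palindrome CACGTG and is counted on both strands. The stretch of PGM1 also holds GCGTG, in lower case, and these same windows of PGM1, GBE1 and PPP1R3C hold further matches that are not printed. The windows of UGP2, PGM2 and PYGB, which were not called, also hold 1 or both motifs, and that of PYGL holds neither. A match describes these letters and was not tested for binding.

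Beyond the members, 50 other genes of the pathway were examined in 4 lists, and 42 of them were tested. By edgeR, 1 was called higher (PHKA2) and 0 lower at 24 h, and at 48 h 0 in either direction. For the mean of both time points 2 were called higher (PHKA2 and PPP1R3G) and 0 lower. The shares of all genes are given above. PPP1R3G is not weighed against them, since it passed the filter on low counts only through the Molidustat libraries. At 48 h DESeq2 and limma-voom each called PHKA2, STBD1 and PPP1R3G higher, and edgeR without a filter on low counts called STBD1 higher and PPP1CB, UGDH and UGGT1 lower. These settings also called more of all genes, with 1.20%, 1.71% and 0.542% higher at 48 h, 2.15% lower at 48 h without the filter, and 1.79%, 1.95% and 0.883% higher for the mean, where 0.672% were lower without the filter. Among DMSO libraries at 48 h, replicate 2 had the highest PPP1CB (8451 CPM, lowest 940 CPM) and UGDH (2367 CPM, lowest 310 CPM). With Molidustat at 48 h these genes ran from 846 to 1180 CPM and from 239 to 344 CPM. At 48 h, 9 of the 42 had an unadjusted edgeR p under 0.05, 4 higher and 5 lower, as did 13.3% of all genes. The median log2 fold change over the 42 genes was 0.11 at 24 h, -0.03 at 48 h and -0.04 for the mean. Without replicate 2 of DMSO at 48 h, 44 of these genes were tested, 4 had an unadjusted edgeR p under 0.05 at 48 h (6.60% of all genes in that fit), and the median for the mean was 0.11. GPI was then called in addition at 24 h (0.728% of all genes called higher), and GPI and STBD1 for the mean (1.25%). Of the separate lists, priming, debranching and lysosomal breakdown had no edgeR call among 5 tested genes in any of the 3 comparisons, while DESeq2, limma-voom and edgeR without the filter called STBD1 of this list at 48 h and for the mean. By edgeR, the list of other phosphatase subunits, laforin and malin had 1 call among 9, that of PPP1R3G for the mean of both time points. The kinases had 1 among 15 at 24 h and for the mean, and the other sugar phosphate enzymes had none among 13.

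**Figure D3:**
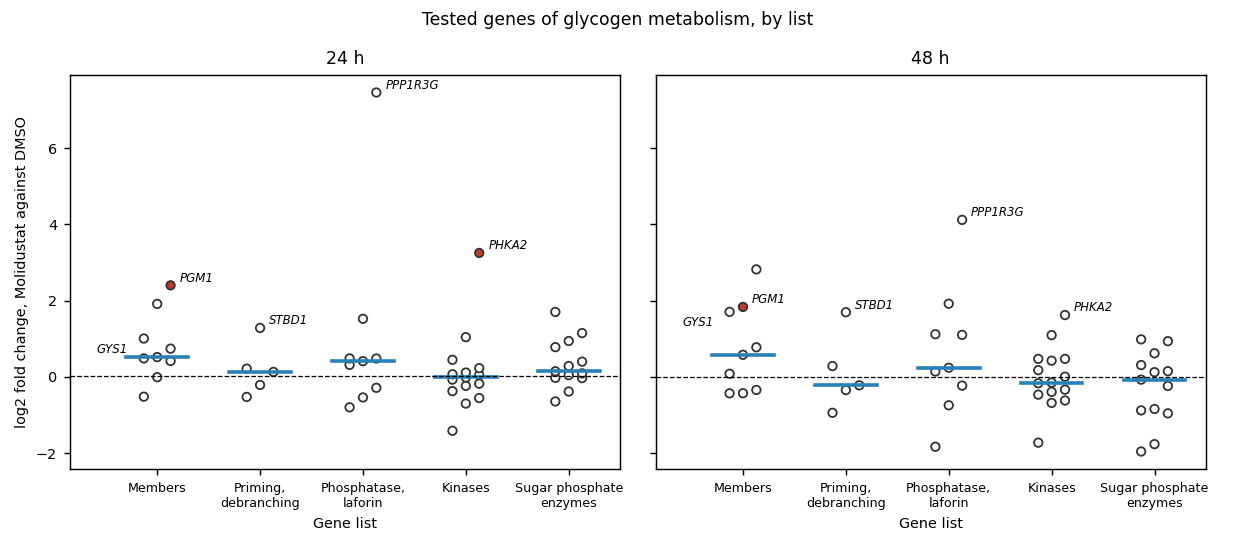
Log2 fold change of Molidustat against DMSO (vertical axis) for every tested member and for the other pathway genes in 4 lists (horizontal axis), at 24 h and 48 h. Each circle is 1 gene, red ones were called, blue bars are list medians and the dashed line is the median of all genes tested. Most genes lie near 0, with PGM1 and PHKA2 called at 24 h, and the point of PPP1R3G at 24 h is a fitted value against a group at 0.

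PHKA2, the liver form of the regulatory alpha subunit of phosphorylase kinase, was called at 24 h, where it had 2.30, 2.31 and 3.72 CPM with DMSO and 31.9, 34.6 and 14.6 CPM with Molidustat. After 48 h it had 7.86, 12.8 and 6.61 CPM with DMSO and 20.4, 31.7 and 27.8 CPM with Molidustat. The treatments were separated at both times, and the Molidustat means were alike at 27.0 ± 10.8 and 26.7 ± 5.73 CPM (SD, n = 3), while the DMSO means were 2.78 ± 0.82 and 9.08 ± 3.26 CPM. Its log2 fold change was 3.25 ± 0.50 (SE; edgeR adjusted p = 0.00572) at 24 h, 1.62 ± 0.47 (edgeR adjusted p = 0.202) at 48 h and 2.44 ± 0.34 (edgeR adjusted p = 0.00127) for the mean. At 48 h it was also called by DESeq2 (adjusted p = 0.0392) and limma-voom (adjusted p = 0.00407). The 24 h call was lost without replicate 1 (3.12, adjusted p = 0.0648) or replicate 2 of DMSO at 24 h (3.15, adjusted p = 0.0520), and the mean was called in all 12 such fits. The difference between the time points was -1.63 ± 0.66 (edgeR adjusted p = 0.728). PHKA2-AS1, on the opposite strand, shares 18.6% of the exonic bases of PHKA2 and had 0 to 13 counts per library.

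PPP1R3G, a further glycogen-targeting subunit of protein phosphatase 1, was at 0 in the 3 DMSO libraries at 24 h and at 6.45, 3.40 and 3.85 CPM with Molidustat. Against a floor of 3 counts over the DMSO group this was at least 17.9-fold higher. At 48 h it had 0.949, 0 and 0 CPM with DMSO and 7.42, 8.15 and 6.39 CPM with Molidustat, again without overlap. With all 12 libraries and the filter on low counts, edgeR called it for the mean of both time points only (adjusted p = 0.0180), a call lost without replicate 3 of Molidustat at 48 h (adjusted p = 0.0532). At 24 h and 48 h the edgeR adjusted p was 0.162 and 0.208, with 18 to 34 counts per Molidustat library. Other settings called it at single times. At 24 h DESeq2 called 0.932% of all genes higher and edgeR without a filter 0.366%. DESeq2 gave an adjusted p of 0.00360 at 24 h and 0.0177 at 48 h, limma-voom 0.00787 at 48 h, edgeR without a filter on low counts 0.0156 at 24 h, and edgeR without replicate 1 of DMSO at 48 h 0.0471 at 48 h. With 1 of 6 DMSO libraries above 0, PPP1R3G passed the filter on low counts only through the Molidustat libraries, and a filter of at least 10 counts in every library removed it. Its fold and its calls are therefore given as a description.

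STBD1, a protein that binds glycogen and anchors it to membranes, had 13.6, 25.0 and 16.5 CPM with DMSO and 32.6, 38.8 and 61.9 CPM with Molidustat at 24 h. At 48 h it had 19.9, 2.13 and 16.3 CPM with DMSO and 64.0, 32.6 and 39.1 CPM with Molidustat. All Molidustat libraries were above all DMSO libraries, but its changes on the log2 scale, 1.29 ± 0.51 (SE) at 24 h, 1.70 ± 0.52 at 48 h and 1.49 ± 0.37 for the mean, were not called with all 12 libraries and the filter on low counts (edgeR adjusted p = 0.825, 0.205 and 0.0751). The 48 h change was called by DESeq2 (adjusted p = 0.0392), by limma-voom (adjusted p = 0.0282) and by edgeR without a filter on low counts (adjusted p = 0.0163), as was the mean (adjusted p = 0.00322, 0.00376 and 0.00106). Without replicate 2 of DMSO at 48 h, the library at 2.13 CPM, the mean was 1.31 and was called (edgeR adjusted p = 0.0152). The 48 h change was then also 1.31 and was not called (edgeR adjusted p = 0.334). STBD1 shares 88.5% of its exonic bases with the readthrough gene FAM47E-STBD1 on the same strand, so the counts of these 2 genes are uncertain.

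**Figure D4:**
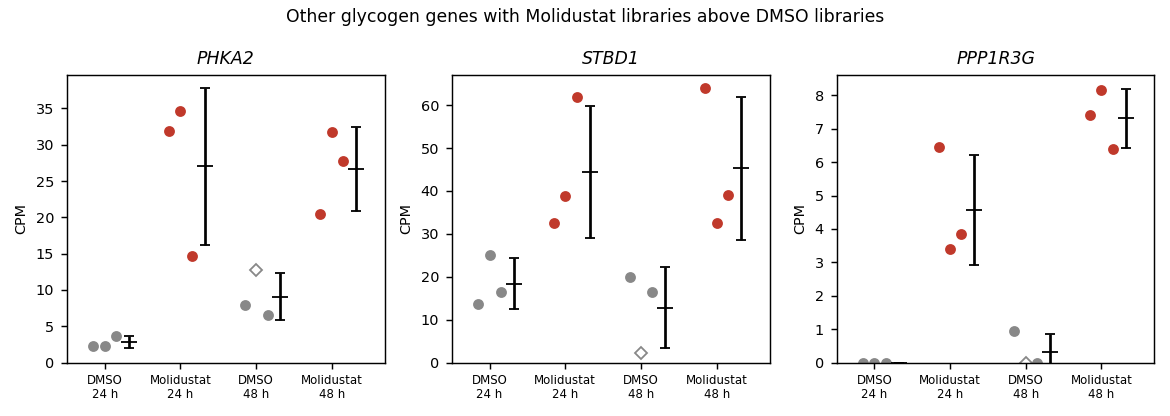
Level in CPM (vertical axes, starting at 0) of PHKA2, STBD1 and PPP1R3G in each of the 12 libraries, by treatment and time (horizontal axes). Grey points are DMSO and red points Molidustat libraries, the open diamond is replicate 2 of DMSO at 48 h, and black bars are the mean ± SD of 3 libraries. In all 3 genes every Molidustat library is above every DMSO library of the same time.

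The remaining genes described had separated groups at 1 time point and were not called with all 12 libraries and the filter on low counts. Without a filter on low counts, edgeR called GPI at 24 h (adjusted p = 0.0223) and UGGT1 at 48 h (adjusted p = 0.000864). Higher with Molidustat at 24 h were EPM2A, which encodes the glycogen phosphatase laforin (log2 fold change 1.53 ± 1.25, SE), GPI, which interconverts glucose 6-phosphate and fructose 6-phosphate (1.71 ± 0.70), and GFPT1, which opens the hexosamine pathway (0.78 ± 0.45). Lower at 24 h were PPP1CC, a catalytic subunit of protein phosphatase 1 (-0.54 ± 0.28), and PRKAG2, a regulatory subunit of AMP-activated protein kinase (-1.41 ± 0.78). At 48 h PPP1R3F, a targeting subunit (1.92 ± 0.996), PRKAB2, a subunit of AMP-activated protein kinase (1.10 ± 0.47), and the galactokinase gene GALK1 (0.94 ± 0.60) were higher. PRKAA1, a catalytic subunit of that kinase (-0.62 ± 0.29), and UGGT1, which uses UDP-glucose in glycoprotein folding control (-1.96 ± 0.63), were lower at 48 h. Replicate 2 of DMSO at 48 h set the size of several of these. UGGT1 had 277 CPM in it and 44.9 and 40.4 CPM in the other DMSO libraries at 48 h, and its change was -0.51 without it. GALK1 had 3.19 CPM in it and 65.1 and 57.4 CPM in the others, and its change was 0.44 without it. PRKAB2 had 4.26 CPM in it and 27.2 and 17.2 CPM in the others, and its change was 0.73 without it. The 48 h change of PRKAA1 was -0.42 without that library. GPI had 6981 CPM in it and 910 and 738 CPM in the other DMSO libraries, and its 48 h change of -0.88 became 0.91 without it. At 24 h GPI had 271, 817 and 857 CPM with DMSO and 2032, 2743 and 1569 CPM with Molidustat, and its change was called without that library (1.72, edgeR adjusted p = 0.0207) but not with it (adjusted p = 0.872). The 24 h change of EPM2A was 0.995 without replicate 2 and 2.34 without replicate 3 of DMSO at 24 h, and that of GFPT1 was 0.39 without replicate 2 of Molidustat at 24 h. Some of these genes had the opposite sign at the other time point. Over the scalings tried, the 24 h change was -0.84 to -0.79 for PPP1R3F, -0.42 to -0.36 for PRKAB2 and 0.36 to 0.41 for UGGT1. The 48 h change of GFPT1 was -0.92 to -0.47, and -0.05 without replicate 2 of DMSO at 48 h.

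Hepatocyte genes outside the pathway were examined in the same comparisons. Of the 10 hepatocyte markers, 8 had a positive log2 fold change at each time point, with medians of 0.42 at 24 h and 1.09 at 48 h. Replicate 2 of DMSO at 48 h had the lowest summed level, and without it the 48 h median was 0.69, the 48 h change of HNF4A, a liver transcription factor, was -0.05 in place of -1.88, and TF and SERPINA1 were called by edgeR at both times (0.728% of all genes called higher at 24 h and 0.315% at 48 h). With all 12 libraries, none was called at either time, with 2 at 24 h and 7 at 48 h at an unadjusted p under 0.05 (5.25% and 13.3% of all genes), and TF and SERPINA1 were called for the mean of both. Their summed level was 28089 to 31300 CPM with Molidustat at 48 h and at most 19293 CPM with DMSO at 48 h. Their part in the differences of PGM1, GYS1 and PHKA2 was not tested.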

How the data were processed

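RNA of 12 Huh7 libraries (QIAseq UPX 3′ kit) was sequenced from the 3′ ends of polyadenylated transcripts. The authors deposited raw counts per Ensembl gene, 1 file per library. The submitters' processing notes name bcl2fastq 2.17.1.14, cutadapt 1.9.1, STAR 2.7.9a, HTSeq 0.11.2, DESeq2 1.26.0 and GRCh38. The annotation release, the strand setting and the use of molecular identifiers are not given in the sources used here, and any floor given therefore covers counting error alone. Symbols, coordinates and exon overlaps came from GENCODE 44 (60437 of 60666 identifiers matched). The 5 summary lines were left out of library sizes. The line for low quality repeated the line for multi-mapped reads (7.08% to 10.4% of reads) in all 12 files.

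Counts were tested with edgeR 4.0.16 in R 4.3.3 (quasi-likelihood F test, two-sided, all 12 libraries, 4 group means, TMM, filterByExpr with a minimum count of 10 and a minimum total of 15), and p-values were Benjamini-Hochberg adjusted over 14274 genes. A call required both an adjusted p below 0.05 and a change of more than 1 on the log2 scale. No fold threshold was set for the difference between time points. Alternatives were DESeq2 1.42.0, limma 3.58.1 (voom with sample quality weights), RLE factors, total counts, other count filters, a replicate block, single libraries left out, only the 2 groups compared and no fold threshold. The procedure was tested on simulated data. All pairs of replicates differed by more than sampling noise.

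Named genes were the 10 members, every called gene of the 4 pathway lists, and at each time point the 2 genes of each list with the largest change in each direction among those with separated groups. A result that this rule selected is not reported here. Members and lists were chosen with earlier results of these data known.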

Additional observations from a re-analysis of the deposited data

How the results depend on the processing

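PGM1 at 24 h and for the mean of both time points were called under every alternative run, and PHKA2 for the mean under every alternative in which it was tested (at least 10 counts in every library removes it), whereas the 48 h call of PGM1 and the mean call of GYS1 depended on the setting. The number of members called at 48 h (1 in the main test) was 2 with DESeq2, 2 with limma-voom, 0 with only the 2 groups compared and 0 to 1 when single libraries were left out. For the mean of both time points (2) it was 1 with total counts, 1 with at least 10 counts in every library, a filter that removes GYS1, and 1 to 2 with single libraries left out. Under total counts GYS1 had an adjusted p of 0.0890. The same replicate numbers did not pair the samples, as deviations from the group means correlated at -0.09 to 0.14 in the 18 pairs with the same number, 3 of them over 0.1, and 5 of 12 libraries correlated best with their own number. With the replicate block, 0 members were called at 48 h (PGM1, adjusted p = 0.0755) and 1 for the mean (GYS1, adjusted p = 0.0806), and it changed no other call of a gene named in the text. Numbers of genes called varied more. At 24 h (33) there were 145 with DESeq2, 64 with limma-voom, 106 without a filter, 15 with at least 10 counts in every library, 57 with only the 2 groups, and 20 to 116 with single libraries left out (20 and 21 without replicate 1 or 2 of DMSO at 24 h, 116 without replicate 2 of DMSO at 48 h). At 48 h (33) the same settings gave 349, 278, 764, 15, 7 and 13 to 327 (327, 53 and 198 without replicate 1, 2 or 3 of DMSO at 48 h, and 17, 14 and 13 without those of Molidustat). For the mean (147) DESeq2 gave 297, limma-voom 314, no filter 442, at least 10 counts in every library 90, and single libraries left out 78 to 209 (85 and 95 without replicate 1 or 2 of DMSO at 24 h, 96, 97 and 78 without replicate 1, 2 or 3 of Molidustat at 48 h). For the difference between time points (0) DESeq2 gave 8 and no filter 321. Between times with DMSO (1) there were 40 with DESeq2, 2 with limma-voom, 3 with total counts, 400 without a filter, 0 with at least 10 counts in every library, 0 with only the 2 groups and 1 to 2 with single libraries left out. With Molidustat (0) there were 12 with DESeq2, 1 with limma-voom, 4 without a filter and 0 to 4 with single libraries left out. Total counts moved the median of all genes to 0.13 at 48 h, and the changes of PGM1 and GYS1 were then 1.97 and 1.77. Few directions reversed. UGP2 at 24 h (-0.01) was 0.00397 with DESeq2, 0.00364 with RLE factors, 0.014 without a filter, 0.0373 with at least 10 counts in every library, 0.00935 with only the 2 groups, and -0.18 to 0.12 with single libraries left out. UGP2 at 48 h was -0.00547 to 0.16, PYGL at 48 h -0.85 to 0.0575 and GPI at 48 h -1.28 to 0.91 with single libraries left out, and GPI was 0.67 with limma-voom. PPP1R3C at 24 h was -0.16 with limma-voom and -3.77 to 6.34 with single libraries left out. The cause of these changes was not tested. Counts of the targeting subunits were low in many libraries, and 3 counts correspond to 0.310 CPM in the deepest and 3.19 CPM in the shallowest library.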
